A study of Mus musculus with 2 samples.

Results

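The genes described here are 10 genes of the Notch pathway among the 32285 features measured in cells of the mouse mitral valve. They were chosen by symbol and by role: 3 receptors (Notch1, Notch2 and Notch4), 4 ligands (Jag1, Jag2, Dll1 and Dll4) and 3 target genes (Hey1, Heyl and Hes1). Single-cell RNA-Seq was performed with 1 library of WT cells and 1 library of mgR cells. The animals were 12 weeks old and untreated. The mgR mice were homozygous for the mgR allele of Fbn1 (Fbn1 mgR/mgR), a hypomorphic allele that lowers the amount of fibrillin-1, and the WT mice were Fbn1+/+ littermates. Both were on a C57BL/6J background, and the mgR colony is a substrain bred apart from its founders. Cells were freed from the leaflets by enzymes (collagenase and elastase) and sorted for viability. The files do not tie the cells of a library to single animals.

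Notch receptors are membrane proteins that are activated by ligands on a neighboring cell. Ligand binding leads to cleavage by ADAM proteases and gamma-secretase, which frees the intracellular domain to enter the nucleus, where it joins the DNA-binding protein RBPJ and a Mastermind coactivator. Genes of the Hey and Hes families, which encode transcriptional repressors, are typical targets. In the heart, signaling through Notch in endothelium takes part in the formation of the valves, and human NOTCH1 mutations cause aortic valve disease.

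The WT library held 5381844 UMIs (unique molecular identifiers, each standing for a captured RNA molecule) in 1104 barcodes, and the mgR library held 28215539 UMIs in 3802 barcodes. After filtering, 875 WT cells with a median of 5033 UMIs and 3438 mgR cells with a median of 7370 UMIs were kept, and the libraries had 2 barcodes in common. Fbn1, the targeted gene, measured 171 CPM (UMIs per 1000000 UMIs of the cell type) in WT fibroblasts and 135 CPM in mgR fibroblasts, a ratio of 0.790 (0.691 to 0.907). The methods of the study describe male mice, yet cells with UMIs of Xist and none of the Y-linked genes made up 28.1% of the WT cells and 60.8% of the mgR cells. Cells with Y-linked UMIs alone made up 38.5% and 21.1%. These shares differed between the libraries. The ratios of mgR to WT for the 10 genes in endothelium, fibroblasts and macrophages were also computed within these groups of cells. Ratios of other genes, cell groups and subsets were not.

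Cell types were assigned by marker UMIs. Endothelium had at least 2 UMIs of Pecam1 and Cdh5, fibroblasts at least 10 of Col1a2, Col3a1 and Dcn, and macrophages at least 10 of the C1q genes. Cells that passed 1 of these gates only were used for the levels: 29 WT and 150 mgR endothelial cells, 322 and 879 fibroblasts, and 224 and 1539 macrophages. All 8 endothelial markers outside the gate were detected in endothelium, where their summed level was 2679 CPM (WT) and 3250 CPM (mgR). In fibroblasts this sum was 4.995% and 4.86% of the endothelial level, mostly from Eng, and in macrophages 0.491% and 0.654%. Another 28 WT cells and 304 mgR cells passed both the endothelium and the fibroblast gate. Their endothelial marker level was 139% and 124% of that of endothelium, and their fibroblast marker level was 28.9% and 16.3% of that of fibroblasts. What sets these cells apart was not tested, and they are given as a group of their own. Among all cells passing both gates, including any that also passed the macrophage gate, Scrublet marked 1 WT cell and 13 mgR cells as doublets.

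Across the kept cells the 10 genes contributed 1937 WT and 7641 mgR UMIs. With 1 library per genotype, no test of a genotype difference was possible. Intervals in parentheses are 95% intervals that cover counting error only.

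In both libraries the endothelium stood apart for Notch1 and for the ligands Jag1 and Dll1, fibroblasts for Heyl, and Hes1 was shared by endothelium and fibroblasts. Of the 9 genes with at least 20 UMIs, 5 (Notch1, Notch4, Jag1, Jag2 and Dll1) had a level in endothelium at least 2-fold above that in fibroblasts and in macrophages in both libraries, a pattern held by 5.92% of all genes tested. For Notch4 and Jag2 the WT side of this pattern rests on 1 UMI in endothelium, and Dll4 had too few UMIs to be counted. Heyl alone met the same criterion in fibroblasts (9.25% of all genes), and none did so in macrophages (8.76%).

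**Figure D1:**
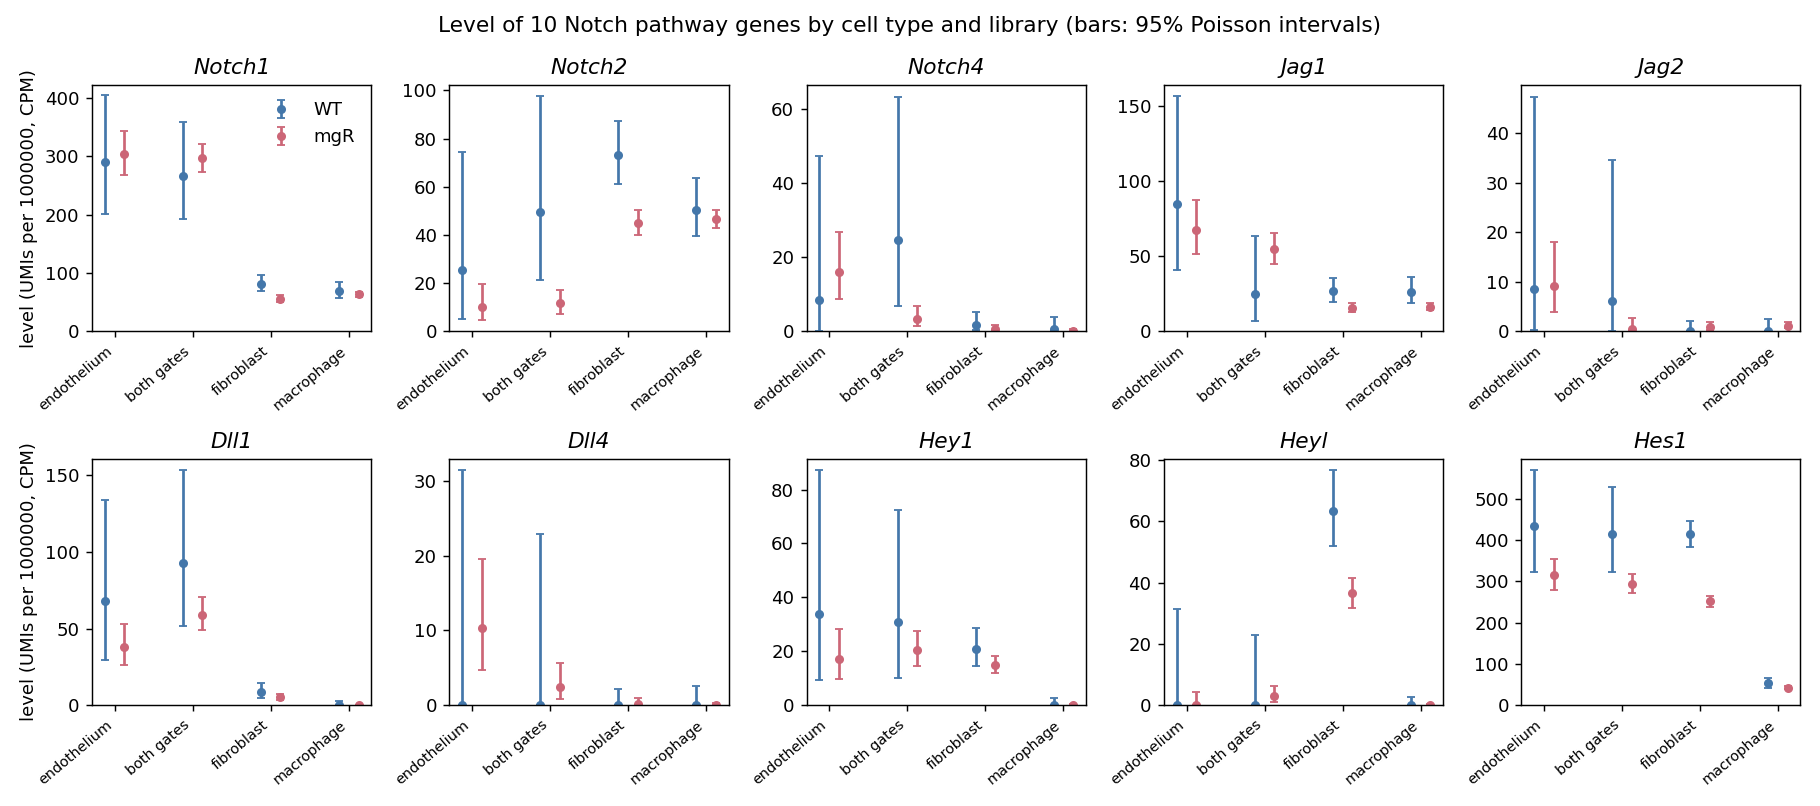
Level of each gene (y axis, CPM, a separate linear scale per panel) in endothelium, cells passing both the endothelium and fibroblast gates, fibroblasts and macrophages (x axis), in the WT (blue) and mgR (red) library; points are summed UMIs per type and bars are 95% Poisson intervals. Notch1 sits near 300 CPM in the groups with endothelial markers and below 100 CPM elsewhere, Heyl is highest in fibroblasts, and Hes1 falls from endothelium and fibroblasts to macrophages.

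Notch1 (ENSMUSG00000026923, GRCm38 chromosome 2, 26457903 to 26516663, minus strand), the receptor with the most UMIs, was measured at 289 CPM (200.3 to 404) in WT and 304 CPM (268 to 343) in mgR endothelium. Fibroblasts held 81.7 CPM (68.7 to 96.5) and 55.8 CPM (50.1 to 62.0), and macrophages held 69.9 CPM (57.0 to 85.0) and 63.7 CPM (59.5 to 68.1). Endothelium was thus above both other types, by 3.54-fold (2.36 to 5.18) over fibroblasts in the WT library and 5.45-fold (4.62 to 6.41) in the mgR library. Fibroblasts and macrophages could not be separated in the WT library, where their ratio was 1.17 (0.898 to 1.53), and in the mgR library it was 0.876 (0.771 to 0.993). The fibroblast level was 28.3% and 18.4% of the endothelial level, and the macrophage level 24.2% and 21.0%. This is more than the share of each endothelial marker in those types. In fibroblasts the marker Eng came closest, at 21.4% and 17.6%, and no interval was computed for the gap between Notch1 and Eng. Cells passing both gates carried endothelial levels, with 266 CPM and 296 CPM.

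Notch2 (chromosome 3, 98013527 to 98150361, plus strand), a receptor also used in many non-endothelial cells, had the reverse order. It measured 73.4 CPM (61.1 to 87.5) in WT and 45.0 CPM (39.9 to 50.6) in mgR fibroblasts, and 50.5 CPM and 46.7 CPM in macrophages. In endothelium only 3 WT UMIs (25.5 CPM) and 9 mgR UMIs (10.3 CPM) were found. In the mgR library endothelium was at 0.229 (0.104 to 0.442) of the fibroblast level and 0.221 (0.101 to 0.422) of the macrophage level, whereas the WT intervals reached 1.04 and 1.53. Notch2 was also present in T cells, with 54.8 CPM in the WT and 17.6 CPM in the mgR library from 22 and 15 UMIs, and in dendritic cells, with 39.5 CPM and 28.9 CPM.

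Notch4 (chromosome 17, 34564268 to 34588503, plus strand), a receptor known from endothelium, was sparse. It had 1 UMI in WT endothelium and 14 UMIs in mgR endothelium (16.1 CPM, 8.77 to 26.9). Fibroblasts held 3 and 4 UMIs and macrophages 1 and 2. The mgR endothelium was 24.9-fold (7.82 to 104) above mgR fibroblasts, and the WT counts were too few to order the types.

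Among the ligands, Jag1 (chromosome 2, 137081456 to 137116644, minus strand) was found in all 3 types. Its level was 85.0 CPM (40.8 to 156) in WT and 67.6 CPM (51.5 to 87.2) in mgR endothelium. Fibroblasts held 26.6 CPM (19.4 to 35.7) and 15.6 CPM (12.7 to 19.1), and macrophages 26.3 CPM (18.6 to 36.1) and 16.5 CPM (14.4 to 18.8). Endothelium was above fibroblasts 3.19-fold (1.43 to 6.42) and 4.33-fold (3.07 to 6.04), while fibroblasts and macrophages did not differ beyond counting error, at 1.01 (0.643 to 1.60) and 0.948 (0.739 to 1.21). In the WT library T cells held 42.3 CPM of Jag1 from 17 UMIs, against 12.9 CPM from 11 UMIs in the mgR library.

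Dll1 (chromosome 17, 15367354 to 15376872, minus strand), a ligand of the Delta-like family, was a gene of endothelium with a low level in fibroblasts. Endothelium held 68.0 CPM (29.4 to 134) in WT and 37.8 CPM (26.0 to 53.1) in mgR, from 8 and 33 UMIs. Fibroblasts held 8.88 CPM (4.97 to 14.7) and 5.16 CPM (3.53 to 7.28), and macrophages had 0 UMIs in WT and 1 in mgR. The excess over fibroblasts was 7.66-fold (2.81 to 19.2) and 7.33-fold (4.37 to 12.3). That over WT macrophages was 32.8-fold with 3 UMIs taken in place of the count of 0. With the count of 0 kept, the interval of this ratio began at 21.0-fold. Cells passing both gates held 92.9 CPM and 59.0 CPM, which was 1.37-fold (0.544 to 3.72) and 1.56-fold (1.05 to 2.36) the level of endothelium.

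Jag2 (chromosome 12, 112907819 to 112929776, minus strand) and Dll4 (chromosome 2, 119325784 to 119335962, plus strand) were close to the limit of detection. Jag2, a Serrate-type ligand like Jag1, had 1 and 8 UMIs in endothelium, 0 and 5 in fibroblasts and 0 and 16 in macrophages. In the mgR library endothelium was 11.4-fold (3.28 to 44.2) above fibroblasts. Dll4, the ligand of arterial and sprouting endothelium, was not found in the whole WT library (0 UMIs), and of its 17 UMIs in the mgR library, 9 were in endothelium (10.3 CPM, 4.72 to 19.6), 1 in fibroblasts and 0 in macrophages. A count of 0 in the 29 WT endothelial cells does not show absence, since its 95% upper limit of 31.4 CPM lies above the mgR level.

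Hes1 (chromosome 16, 30064384 to 30067796, plus strand), a repressor induced by Notch and by other pathways, gave more UMIs than any of the other 9 genes. It measured 434 CPM (323 to 570) in WT and 315 CPM (279 to 355) in mgR endothelium. Fibroblasts held 413 CPM (383 to 445) and 251 CPM (239 to 264), and macrophages 52.6 CPM (41.5 to 65.9) and 42.7 CPM (39.3 to 46.4). Macrophages were therefore far below both other types, by 7.86-fold (6.19 to 10.1) against fibroblasts in WT and 5.88-fold (5.34 to 6.48) in mgR. Endothelium and fibroblasts did not differ beyond counting error in WT, at 1.05 (0.774 to 1.40), and endothelium was 1.26-fold (1.10 to 1.43) above fibroblasts in mgR.

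Heyl (chromosome 4, 123233556 to 123249875, plus strand), a target best known from mural and smooth muscle cells, was measured in fibroblasts. The level was 63.4 CPM (51.9 to 76.6) in WT and 36.4 CPM (31.8 to 41.5) in mgR fibroblasts, from 107 and 226 UMIs. Endothelium had 0 UMIs in both libraries, and macrophages 0 and 2. In the mgR library the 95% upper limit for endothelium was 0.117 of the fibroblast level. The sum of mural markers was not higher in the fibroblasts with Heyl, although Notch3 was in the mgR library. After thinning to 2000 UMIs per cell, the 28 WT cells with a Heyl UMI held 161 CPM (73.5 to 305) of 6 mural markers and the other 264 cells 241 CPM (201 to 286), and the mgR values were 135 CPM (73.6 to 226) and 190 CPM (169 to 213). Outside that sum, Notch3, a receptor of mural cells, was at 96.2 CPM (46.1 to 177) in the mgR cells with Heyl and 15.1 CPM (9.68 to 22.5) in the others, from 10 and 24 UMIs, and at 0 and 15 UMIs in WT. The smooth muscle actin gene Acta2 was at 144 CPM (80.7 to 238) and 95.1 CPM (80.5 to 112) in mgR, and at 0 and 28 UMIs in WT. Within the sum, Kcnj8 and Myh11 were higher in the mgR cells with Heyl, with Kcnj8 at 48.1 CPM (15.6 to 112) against 20.8 CPM (14.3 to 29.2). Rgs5, Abcc9, Mcam and Cspg4 were lower, with Rgs5 at 28.8 CPM (5.95 to 84.3) against 83.8 CPM (70.1 to 99.3). The intervals overlapped for each of these mural markers. Notch3 thus had intervals apart in the mgR library and not in WT. Its 10 UMIs came from 5 of 52 mgR cells with Heyl, and the intervals do not cover the sampling of cells. Notch3 was not raised beside Heyl alone. In the mgR fibroblasts with Hey1 it was at 130 CPM (47.9 to 284), from 6 UMIs in 3 cells, against 17.0 CPM (11.3 to 24.6) in the others. These splits were chosen after the levels had been seen.

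Hey1 (chromosome 3, 8663359 to 8667256, minus strand), the related repressor, was shared by endothelium and fibroblasts. Endothelium held 34.0 CPM (9.27 to 87.1) and 17.2 CPM (9.62 to 28.4), from 4 and 15 UMIs. Fibroblasts held 20.7 CPM (14.4 to 28.8) and 15.0 CPM (12.1 to 18.4). These levels did not differ beyond counting error in either library, and macrophages had 0 UMIs in WT and 1 in mgR.

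Targets outside the 10 genes completed the picture. Hey2, another repressor of this family, was a gene of endothelium, at 85.0 CPM and 60.8 CPM, and was 11.97-fold (4.63 to 30.2) and 22.2-fold (12.6 to 40.8) above fibroblasts. Hes5 was nearly absent, with 0 WT and 3 mgR UMIs. Notch3, the receptor of mural cells, had 24 and 111 UMIs in fibroblasts and 0 in endothelium of both libraries.

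The promoters were examined for the core letters of the RBPJ motif, TGGGAA, on both strands. Windows of 300 bases, 250 before and 50 after the start, were taken from RefSeq on GRCm38.p6, and 25.4% of 32544 windows held the motif. Of the 10 genes, Notch1, Notch2, Notch4, Jag1, Jag2, Dll1 and Dll4 had an entry and Hey1, Heyl and Hes1 did not, and 0 of these 7 held the letters. Hey2 and Hes5 each held them at 2 places, 1 on each strand. The windows of Hey2 (chr10:30842734-30843033, minus strand), Hes5 (chr4:154960673-154960972, plus strand) and, for a ligand without a match, Jag1 (chr2:137116471-137116770, minus strand) are printed 5′ to 3′ because the first pair share the motif yet only Hey2 was measured above a few UMIs. Capitals mark TGGGAA or its complement TTCCCA.
Hey2: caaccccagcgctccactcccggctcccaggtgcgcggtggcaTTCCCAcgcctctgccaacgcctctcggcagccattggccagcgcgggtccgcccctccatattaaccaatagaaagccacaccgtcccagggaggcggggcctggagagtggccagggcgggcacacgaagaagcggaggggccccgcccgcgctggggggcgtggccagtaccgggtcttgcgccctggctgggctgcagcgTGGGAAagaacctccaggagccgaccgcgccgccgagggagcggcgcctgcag
Hes5: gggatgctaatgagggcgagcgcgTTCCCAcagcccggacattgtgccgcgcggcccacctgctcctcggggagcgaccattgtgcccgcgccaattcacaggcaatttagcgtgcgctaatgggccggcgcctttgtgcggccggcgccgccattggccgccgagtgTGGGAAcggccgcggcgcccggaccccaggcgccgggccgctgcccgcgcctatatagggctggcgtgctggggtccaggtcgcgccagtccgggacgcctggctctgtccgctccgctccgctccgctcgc
Jag1: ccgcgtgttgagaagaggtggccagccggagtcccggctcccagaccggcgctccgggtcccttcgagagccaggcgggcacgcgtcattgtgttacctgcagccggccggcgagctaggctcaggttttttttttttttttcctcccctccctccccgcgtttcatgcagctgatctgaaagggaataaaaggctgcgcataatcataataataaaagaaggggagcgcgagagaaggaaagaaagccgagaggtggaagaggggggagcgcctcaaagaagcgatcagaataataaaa

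The libraries were then compared within each cell type. The question was how these genes differ between mgR and WT valves in the same kind of cell. A gene was counted when it had at least 20 UMIs in the type over both libraries, and it was called at a CPM ratio of mgR to WT of at least 1.5-fold in either direction.

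In fibroblasts all 7 genes that could be measured were at a lower level in the mgR library. Of these, 5 were past 1.5-fold (Notch2, Jag1, Dll1, Heyl and Hes1) and 0 were higher, while 10.1% of the 11387 genes tested in fibroblasts were lower and 9.96% higher by that fold. This count depended on the processing: it was 3 (Notch2, Heyl and Hes1) when cells passing several gates were kept, and 2 (Notch1 and Heyl) after each cell was thinned to 2000 UMIs, where Hes1 was at a log2 ratio of -0.51 and Notch2 at -0.53. The median log2 ratio was -0.72 over the 7 genes and -0.05 over all genes. Among the 7963 genes with a level of 10 to 500 CPM, 7.60% were lower by 1.5-fold. Hes1 had the tightest ratio, 0.608 (0.555 to 0.665), from 698 and 1558 UMIs. The ratio was 0.613 (0.494 to 0.763) for Notch2, 0.575 (0.455 to 0.731) for Heyl and 0.587 (0.408 to 0.855) for Jag1. Notch1, at 0.683 (0.559 to 0.838), lay just inside the threshold although its interval left out 1. The intervals of Dll1, 0.581 (0.306 to 1.15), and Hey1, 0.723 (0.486 to 1.10), included 1.

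**Figure D2:**
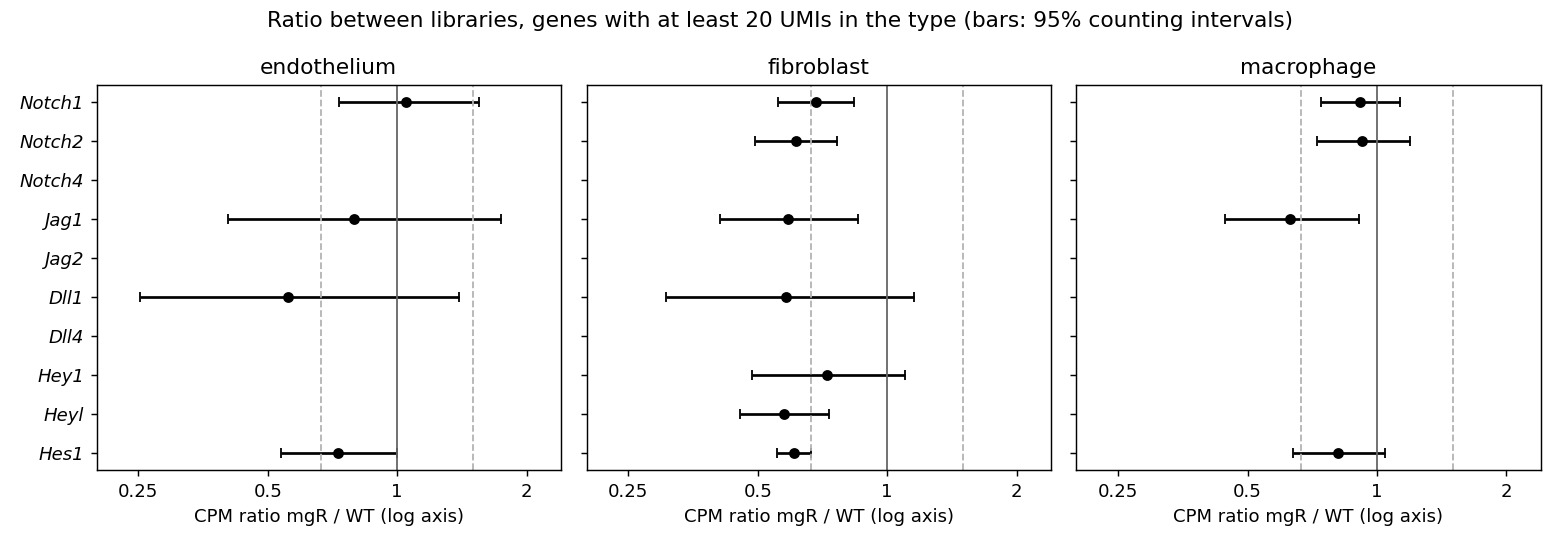
CPM ratio of the mgR to the WT library (x axis, log scale) for each gene (y axis) in endothelium, fibroblasts and macrophages, shown where at least 20 UMIs were found; bars are 95% counting intervals, the solid line marks equal levels and dashed lines mark 1.5-fold. All 7 fibroblast points lie left of the solid line, from 0.575 for Heyl to 0.723 for Hey1, and the Hes1 interval is the narrowest.

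The lower fibroblast level was also seen in the share of cells with a UMI when each cell was thinned to 2000 UMIs, which left out 30 WT and 33 mgR fibroblasts. Hes1 was then found in 41.4% (35.7 to 47.3) of 292 WT and 33.1% (29.9 to 36.4) of 846 mgR fibroblasts, against 62.1% and 57.2% before thinning at median depths of 5182 and 6729 UMIs. Notch1 was found in 15.1% (11.2 to 19.7) and 8.16% (6.40 to 10.2), against 30.4% and 29.4% before thinning. For Heyl the thinned shares were 9.59% (6.47 to 13.6) and 6.15% (4.62 to 7.98), with 0 of 218 thinned WT macrophages, which allows up to 1.38%, and 2 of 1515 mgR macrophages, at median depths of 6013 and 8325 UMIs. Thus the WT share was higher for each of these 3 genes, and the intervals were apart for Notch1 alone. The thinned Notch2 shares, 13.4% and 9.34%, and Jag1 shares, 4.45% and 3.07%, overlapped in their intervals.

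The cells with Xist UMIs alone and those with Y-linked UMIs alone were compared separately. Hes1 was lower in the mgR fibroblasts of both groups, with a ratio of 0.625 (0.533 to 0.737) in the former and 0.496 (0.425 to 0.579) in the latter, and Notch2 likewise, at 0.629 (0.435 to 0.937) and 0.610 (0.418 to 0.891). Heyl was at 0.682 (0.422 to 1.16) and 0.850 (0.603 to 1.21), so that its intervals included 1 within each group. Its level in the WT library was 43.2 CPM in cells with Xist and 71.2 CPM in cells with Y-linked UMIs, from 20 and 57 UMIs. In the mgR library it was 29.5 CPM and 60.5 CPM, from 116 and 88 UMIs. The measured Heyl level was thus lower in the cells with Xist in both libraries, without intervals and from few UMIs in WT. Such cells were 523 of 879 mgR fibroblasts and 81 of 322 WT fibroblasts, and their part in the Heyl ratio was not tested. The remaining genes were less even across the groups. Notch1 was at 0.523 and 0.831, Jag1 at 0.926 and 0.508, and Hey1 at 0.408 and 1.22. Dll1 was at 1.35 (0.334 to 11.8) and 0.1001 (0.0108 to 0.459), from 2 WT UMIs in the former and 2 mgR UMIs in the latter.

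**Figure D3:**
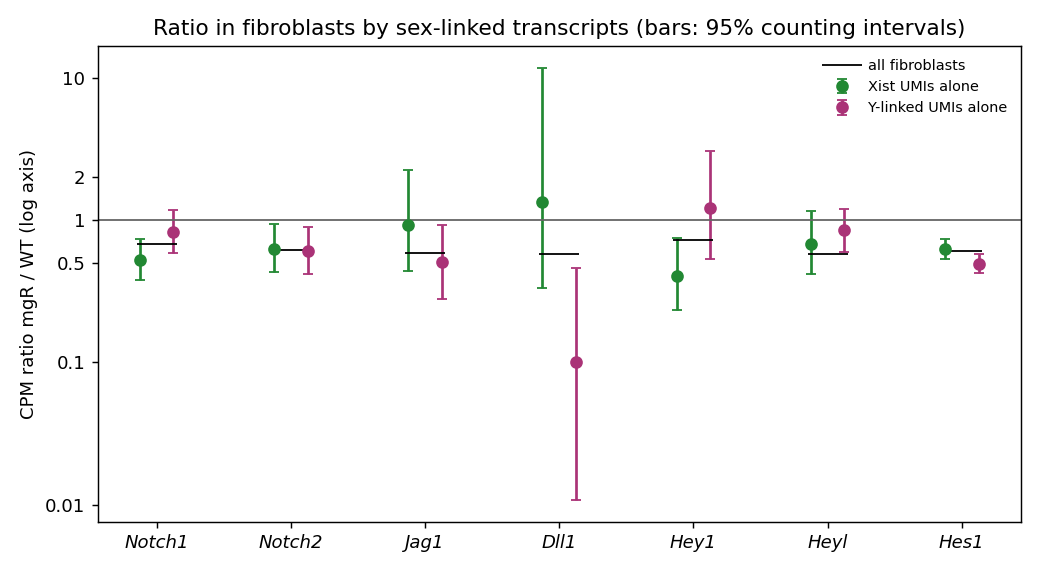
CPM ratio of the mgR to the WT library in fibroblasts (y axis, log scale) for each of 7 genes (x axis), in cells with Xist UMIs alone (green) and with Y-linked UMIs alone (purple); bars are 95% counting intervals and black dashes give the ratio over all fibroblasts. Hes1 and Notch2 lie below 1 with intervals that leave out 1 in both groups, whereas Dll1 and Hey1 fall on opposite sides of 1.

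Fibroblasts were further divided after the levels had been seen, by whether UMIs of Ptx3, Igfbp3 and Smoc2 or those of Fmod, Prg4 and Scx were more numerous. Hes1 was lower in the mgR library on both sides, with 359 CPM and 233 CPM in the former (ratio 0.649, 0.561 to 0.753) and 454 CPM and 263 CPM in the latter (0.579, 0.510 to 0.660). Heyl was at 0.707 (0.513 to 0.985) and 0.406 (0.271 to 0.615), and Notch2 at 0.589 (0.429 to 0.816) and 0.662 (0.474 to 0.938). The ratios of Hes1, Heyl and Notch2 therefore had intervals below 1 in both subsets. Jag1 was at 0.538 (0.337 to 0.872) on the side of Ptx3 and 0.787 (0.379 to 1.79) on that of Fmod.

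The cells passing both gates bear on the Notch1 and Jag1 results. When they were counted as fibroblasts, they made up a larger part of the mgR than of the WT library, and the Notch1 log2 ratio moved from -0.55 to 0.21. The Jag1 ratio moved from 0.587 (0.408 to 0.855) to 0.916 (0.674 to 1.26), an interval that included 1. Hes1, Heyl, Notch2 and Jag1 stayed lower in fibroblasts in all 12 alternatives of the processing, with log2 ratios from -1.01 to -0.51 for Hes1, from -1.06 to -0.23 for Heyl, from -0.92 to -0.53 for Notch2 and from -0.98 to -0.11 for Jag1. Genes of the immediate early response, which rise during tissue digestion, summed to 5667 CPM in WT and 6100 CPM in mgR fibroblasts, and their part in the Hes1 difference was not tested.

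In macrophages 4 genes could be measured and only Jag1 was past the threshold, being lower in mgR at 0.627 (0.443 to 0.910), with 8.19% of 10910 genes lower and 19.1% higher by that fold. Notch1 was at 0.911 (0.741 to 1.13), Notch2 at 0.924 (0.724 to 1.19) and Hes1 at 0.813 (0.639 to 1.05), none of them beyond counting error. The median log2 ratio was -0.22 for the 4 genes and 0.10 for all genes. In the cells with Xist UMIs alone the Jag1 ratio was 1.11 (0.527 to 2.81), from 7 WT UMIs, and in those with Y-linked UMIs alone 0.557 (0.318 to 1.01).

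Hes1 differed between kinds of macrophages. Macrophages were divided, again after the levels had been seen, by whether UMIs of Lyve1, Folr2 and Cd163, markers of resident cells, or those of Cx3cr1 and Cd72 were more numerous. On the side of Lyve1 Hes1 measured 100.2 CPM in WT and 53.3 CPM in mgR, a ratio of 0.532 (0.402 to 0.715), and on the side of Cx3cr1 26.3 CPM and 21.6 CPM, a ratio of 0.819 (0.493 to 1.43). The side of Lyve1 made up 39.3% of WT and 64.1% of mgR macrophages. The ratio over all macrophages therefore joined a higher share of the cells with more Hes1 to a lower level within those cells. Jag1 was at 0.475 (0.285 to 0.841) on the side of Lyve1 and 0.854 (0.508 to 1.51) on that of Cx3cr1.

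**Figure D4:**
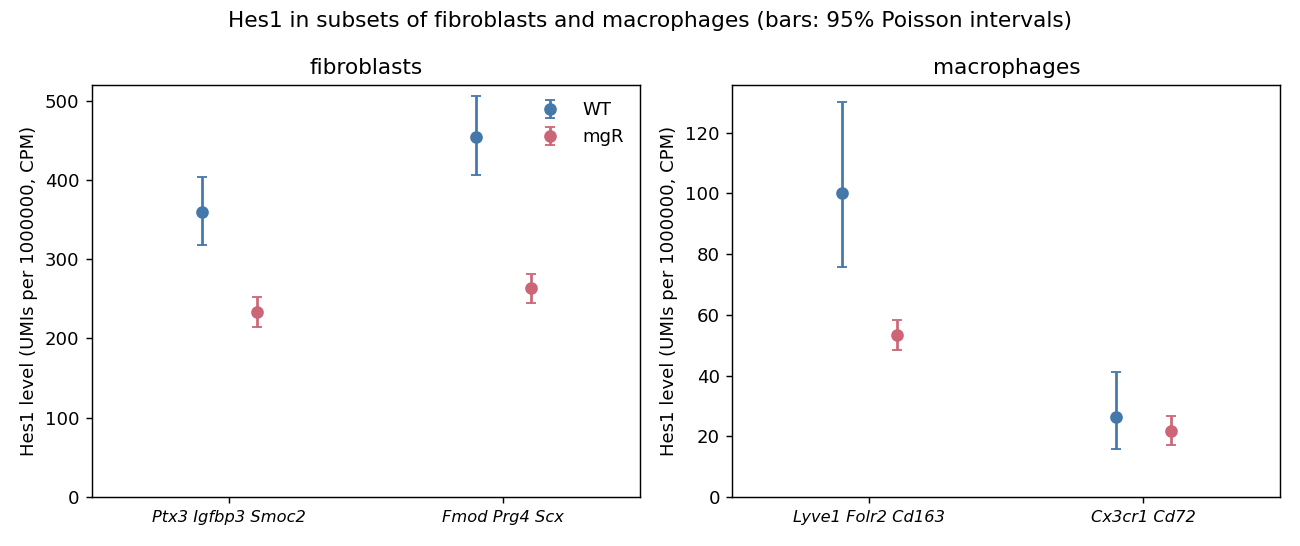
Hes1 level (y axis, CPM, from 0) in fibroblasts (left) and macrophages (right), each divided by the more numerous of 2 marker sets (x axis), in the WT (blue) and mgR (red) library; points are summed UMIs and bars are 95% Poisson intervals. The mgR point lies below the WT point in both fibroblast subsets and in Lyve1 macrophages, and the intervals overlap in Cx3cr1 macrophages.

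In endothelium the low number of WT cells limited the comparison. Of 4 measurable genes only Dll1 was past 1.5-fold, at 0.556 (0.252 to 1.39) from 8 WT UMIs, while 17.6% of 6317 genes were lower and 21.6% higher by that fold. Notch1 was at 1.05 (0.733 to 1.55), Jag1 at 0.795 (0.403 to 1.74) and Hes1 at 0.727 (0.5375 to 1.0003). Each of these 4 intervals reached 1, so that no difference was detectable at this depth in the cells passing the endothelium gate alone. Within the cells with Xist UMIs alone, Jag1 was lower, at 0.329 (0.156 to 0.778) from 9 WT and 36 mgR UMIs, with 9 WT cells, and in those with Y-linked UMIs alone it was at 2.05 (0.297 to 88.0) from 1 and 11 UMIs. In the cells passing both gates Notch1 was at 1.11 (0.816 to 1.55) and Hes1 at 0.709 (0.550 to 0.927). Jag1 was at 2.20 (0.837 to 8.23) there, past 1.5-fold in the direction opposite to fibroblasts, from 4 and 113 UMIs. Dll1, at 0.635 (0.370 to 1.17), and Hey1, at 0.655 (0.260 to 2.12), were past it on the lower side, and these 3 intervals included 1. The share of all genes past 1.5-fold was not computed for the cells passing both gates, so these calls have no general rate beside them. Notch2 was at 0.234 (0.102 to 0.603) in those cells, from 8 and 24 UMIs, beside fibroblast markers that were at 28.9% of the fibroblast level in WT and 16.3% in mgR. The endothelium gate as a whole, other gates passed or not, held 60 WT and 478 mgR cells. There Hes1 was at 0.678 (0.562 to 0.824) and Notch2 at 0.297 (0.156 to 0.604), with intervals below 1. Notch1, at 1.06 (0.845 to 1.35), and Jag1, at 1.05 (0.627 to 1.87), did not differ beyond counting error.

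Endothelial cells were also divided by whether UMIs of Prox1, Vwf and Emcn or those of Wnt9b, Nts and Dkk2 were more numerous. In the mgR library Hes1 measured 470 CPM (394 to 557) in the 58 cells of the former and 263 CPM (219 to 314) in the 74 cells of the latter. Hey2 had the opposite order, at 24.7 CPM (9.95 to 51.0) and 89.1 CPM (64.2 to 120), as did Jag1, at 31.8 CPM (14.5 to 60.4) and 97.6 CPM (71.4 to 130). Notch1 was at 258 CPM (202 to 324) and 371 CPM (318 to 430). Hes1 and Hey2, both targets, thus had their higher level on different sides of the mgR endothelium. Among the 13 WT cells on each side Hes1 was at 355 CPM (199 to 586) and 529 CPM (366 to 739), which did not show this order. WT Jag1 did not either, at 142 CPM (52.1 to 309) and 62.2 CPM (16.9 to 159), while WT Hey2, at 47.3 CPM (5.73 to 171) and 124 CPM (53.7 to 245), had the mgR order. These WT intervals overlapped for each of the 3 genes. The endothelium gate as a whole held 29 WT cells on the side of Prox1 and 18 on that of Wnt9b. There the WT ratio of the Wnt9b to the Prox1 side was 8.198 (1.79 to 76.1) for Hey2, with an interval above 1. WT Jag1 was at 1.16 (0.367 to 3.498) and WT Hes1 at 1.10 (0.719 to 1.67), with intervals that included 1.

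The other genes of the pathway were taken from a list of 50 by role. In fibroblasts 38 could be measured, of which 3 were lower and 2 higher by 1.5-fold, shares of 7.89% and 5.26% beside 10.1% and 9.96% of all genes, and their median log2 ratio was -0.15. The lower ones were Hey2 at 0.386 (0.174 to 0.885), the coactivator Maml1 at 0.545 (0.360 to 0.837) and Dtx4, a Deltex ubiquitin ligase, at 0.563 (0.358 to 0.901). Hes6 at 1.63 (0.830 to 3.58) and Efnb2 at 1.58 (0.604 to 5.22) were the higher ones, with intervals that included 1. The 9 genes of proteolysis, among them the ADAM proteases and the subunits of gamma-secretase, were all within 1.5-fold, and Notch3 was at 1.26 (0.804 to 2.05). In macrophages 35 were measured, with 3 lower and 2 higher, shares of 8.57% and 5.71% beside 8.19% and 19.1% of all genes. Dtx4 was again lower, at 0.552 (0.406 to 0.763), together with the coactivator Maml3 at 0.516 (0.349 to 0.787) and the glycosyltransferase Eogt at 0.512 (0.279 to 1.02), whereas Poglut1, which adds O-glucose to Notch, was higher at 5.01 (1.68 to 24.6) from 3 WT UMIs. Numbl, an adaptor related to the Notch antagonist Numb, had 0 and 34 UMIs. In endothelium 26 were measured, with 8 lower and 4 higher, shares of 30.8% and 15.4% beside 17.6% and 21.6% of all genes. The 4 furthest below were Psen2, of gamma-secretase, at 0.449 (0.231 to 0.941), Hes6 at 0.573 (0.187 to 2.34), the protease gene Adam17 at 0.584 (0.235 to 1.74) and Mib1, a ubiquitin ligase of the ligand-sending cell, at 0.616 (0.342 to 1.19). Adam10, named after its values were seen, was at 0.624 (0.409 to 0.984) and, with Psen2, had an interval below 1. Dlk1, a non-canonical ligand, had 0 WT UMIs and 48 mgR UMIs in endothelium and was called higher. Its ratio was 2.16 with 3 UMIs taken in place of the WT count of 0. With the count of 0 kept, its interval began at 1.69. Dtx1 at 4.31 (0.721 to 176) and the acetyltransferase gene Kat2b at 2.16 (0.550 to 18.6) were also higher, and their intervals included 1.

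The genes whose levels followed the same order across 5 cell types and both libraries were identified by the correlation of log2(CPM + 10) over 10 sums, among 10732 genes. Among the 5 closest to each gene, those for Notch1 were Grina (r = 0.979), Uaca, Capn2, Exoc6b and Mex3d, for Jag1 Scaf8 (r = 0.963), Hk1, Wdr13, Cr1l and Ezh1, and for Hes1 Slc12a2 (r = 0.984), Sntb2, Dennd2a and Ddah2. The sums of a library share its depth and its animals, and these values are descriptions.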

How the data were processed

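The deposited matrices hold raw counts, UMIs per gene and barcode, which the authors made with 10x 3-prime version 3 chemistry and Cell Ranger 7.1.0 (submitters' processing notes, which name mm10). Intron counting is not given in the sources used here. Cells with 200 to 5000 genes and at most 10% mitochondrial UMIs were kept, as in the study. UMIs were summed per library and cell type and divided by the type total. UMIs tag 3-prime ends and were not scaled by length. Intervals are exact Poisson, Clopper-Pearson or conditional binomial. PCR and cell sampling add error they do not cover. Cells are not replicates, and no P value is given. Python used numpy 2.4.6, scipy 1.17.1, pandas 2.3.3 and scanpy 1.11.5; the computation was tested on simulated data. Doublets were not removed, and leaving out cells marked by Scrublet was an alternative. Gene positions are from GENCODE on GRCm38, matched by identifier. The genes, lists and gates were chosen with earlier results of these data known. All 10 genes are named; of the pathway list, up to 4 past 1.5-fold per type and direction are, those furthest from 1 first. Likeness was ranked for the receptor, ligand and target with the most UMIs, over types with at least 20 cells per library. The promoter search was planned for Hey1, Heyl and Hes1 and was run on the genes with an entry instead. Some genes that these rules select are not reported here.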

Additional observations from a re-analysis of the deposited data

How the results depend on the processing

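No paired analysis was possible because each genotype had 1 library. Of the log2 ratios under all alternatives, 14 of 195 changed sign, 9 of them in ratios that were within 1.5-fold at first (Notch1 in each type, Notch2 in macrophages, Hey1 in fibroblasts, Jag1 and Hes1 in endothelium) and 5 in ratios past it. Those 5 were Dll1 in endothelium with looser gates (0.075), Dll1 in fibroblasts with cells of several gates kept (0.17), in cells with Xist UMIs alone (0.44) and on the side of Fmod (0.20), and Jag1 in macrophages with Xist UMIs alone (0.15). The number of the 10 genes lower in mgR fibroblasts, 5, became 3 with cells of several gates kept, 2 after thinning to 2000 UMIs, 3 for Y-linked UMIs alone, and 0 at a 2-fold threshold, and the number higher became 2 with no count minimum. In macrophages the number lower, 1, became 0 with means of per-cell values, in cells with Xist UMIs alone and at 2-fold, and 2 with no minimum, where the number higher rose to 4, or to 1 with a minimum of 10 UMIs. In endothelium the number lower, 1, became 2 with stricter gates or Xist UMIs alone, 3 with cells of several gates kept or a minimum of 10 UMIs or none, and 0 with a Cdh5 UMI required, thinning, means of per-cell values or a 2-fold threshold. The number higher there became 1 with looser gates or a minimum of 10 UMIs and 2 with no minimum. The 5 genes 2-fold higher in endothelium than in both other types became 2 with looser gates or thinning, 3 for Xist UMIs alone and 1 where Y-linked UMIs alone occurred. Other counts of genes, 74 in all, stayed within 1.5 times. The splits of fibroblasts and macrophages were added after seeing the data. Depth limits Notch4, Jag2 and Dll4 in every type and all comparisons of the 29 WT endothelial cells, and with 1 library per genotype, animal, sex mixture and preparation cannot be told apart from genotype.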

Other observations

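Among the less frequent leukocytes, neutrophils held Notch1 at 124 CPM (40.3 to 289) in the 16 WT cells and 99.5 CPM (43.0 to 196) in the 37 mgR cells, from 5 and 8 UMIs. Their Notch2 level was 298 CPM (154 to 520) and 99.5 CPM (43.0 to 196). In dendritic cells of the mgR library Notch1 measured 10.2 CPM (6.04 to 16.1) and Jag2 7.36 CPM (3.92 to 12.6), from 18 and 13 UMIs. In the 90 WT and 148 mgR T cells the ratio of mgR to WT was 0.321 (0.155 to 0.648) for Notch2 and 0.305 (0.129 to 0.690) for Jag1. Hes1 lay in the other direction there, at 7.53 (1.17 to 316), from 1 and 16 UMIs, too few to be counted. Notch1 was at 1.41 (0.579 to 3.93) in T cells, an interval that included 1. The share of all genes past the fold threshold was not computed for T cells. Melanocytes of the WT library, 23 cells, held Hes1 at 186 CPM (96.0 to 325).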
